A study of Mus musculus with 6 samples.

Results

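The axoneme of a sperm tail holds a ring of doublet microtubules around a central pair of single microtubules. The central pair carries projections on its surface, and radial spokes reach from the doublets towards these projections, so that the pair and the spokes together pass mechanical and calcium signals to the dynein arms. Round spermatids, the haploid cells that follow meiosis, begin to build this structure, and loss of many of its proteins is known to give immotile or malformed sperm tails. The genes described here encode proteins of the central pair, the radial spokes and related parts of the axoneme. They were chosen by name, with earlier results of these data known. Of the 34 genes listed, 33 have a row among the 22770 gene rows of the ribosome footprint table. Rsph4a, a spoke head gene, was not analysed here. All 33 averaged 1 FPKM or more across the 6 libraries and were tested, as were 15578 rows in all.

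Ribosome profiling sequences the stretches of mRNA that ribosomes protect from nuclease, and the values are footprint density in FPKM, which is scaled to transcript length and library size. The round spermatids came from mouse testis, with 3 wild-type and 3 Eif5a SKO samples. EIF5A is the hypusine-bearing translation factor that helps ribosomes through difficult stretches such as proline runs, so the comparison asks which footprint densities differ when its gene is targeted. The table calls the second genotype cKO, the expansion of SKO is not given in the labels, and neither are strain, age, the allele or any Cre driver. The design text of the series speaks of 3 mice in each group and of sorting, for an assay of open chromatin. If the footprint samples do not come from separate mice, the p-values measure technical spread only.

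Eif5a itself had 34.2, 48.8 and 61.9 FPKM in wild type and 1.84, 1.93 and 2.99 FPKM in SKO. Its log2 fold change was -3.90 (SE 0.37, limma adjusted p = 0.00641), and the libraries separated by their labels. Summed levels of 16 round spermatid markers, all with a row, ran from 1029.9 to 1909 FPKM in wild type and from 1391 to 2940 FPKM in SKO. The densest, Acrbp and Acrv1 of the acrosome, had means of 548 ± 197 and 403 ± 128 FPKM (SD, n = 3) in wild type and of 686 ± 291 and 628 ± 236 FPKM in SKO. The sums overlapped, but the list lay higher in SKO, with a median of 0.43 relative to all rows and 4 of 16 below the all-row median. At an unadjusted p under 0.05 (limma), 6 were higher and 0 lower, against 8.15% and 2.83% of all rows. Of the 16, Hils1, a spermatid histone gene, rose under TMM-type scaling (6.99 ± 2.51 and 24.9 ± 7.59 FPKM, limma adjusted p = 0.041, against 0.179 with the deposited values). The sums of Leydig and Sertoli markers were low, and lay higher in SKO without overlap. Summed Leydig markers (7 of 10 with a row) ran from 13.6 to 18.6 FPKM in wild type and from 61.2 to 118 FPKM in SKO, and Sertoli markers (7 of 14, with Sox9, Wt1 and Amh among those not analysed here) from 13.4 to 21.2 and from 51.6 to 76.1 FPKM. The densest of these were Insl3 and Cyp17a1 for Leydig cells, with wild-type means of 5.43 ± 4.13 and 2.58 ± 1.71 FPKM against 36.8 ± 17.4 and 18 ± 7.16 FPKM. For Sertoli cells they were Ctsl and Clu, with 7.44 ± 2.99 and 5.57 ± 2.14 against 28 ± 7.71 and 27.7 ± 3.69 FPKM. The Sertoli sum leaned on these, since 2 of its 6 tested genes lay below the all-row median and the median of the 6 was 0.47 relative to all rows, against 1.68 for Ctsl and 2.05 for Clu. Clu rose under TMM-type scaling (limma adjusted p = 0.041, against 0.0853 with the deposited values). Ctsl did not pass (limma adjusted p = 0.0585 under that scaling, against 0.175). The other germ cell sums overlapped: 174 to 319 and 208 to 365 FPKM for 13 pachytene spermatocyte markers, 92.3 to 148 and 134 to 192 FPKM for 9 of elongating spermatids, and 13 to 18.1 and 17 to 21.3 FPKM for 7 of 11 of spermatogonia. Those of peritubular, vessel and blood cells (10 of 15) overlapped too, at 57.2 to 118 and 49.1 to 70.7 FPKM, but held opposite differences. At an unadjusted p under 0.05, 4 of these 10 were higher and 4 lower in SKO. The smooth muscle gene Acta2 (2.93 ± 1.04 and 17.2 ± 4.48 FPKM) and the fibroblast gene Dcn (1.11 ± 0.289 and 8.96 ± 1.33 FPKM) rose under TMM-type scaling, a library scaling described further on (limma adjusted p = 0.041 for each). Dcn rose with the deposited values too (limma adjusted p = 0.047), and Acta2 did not pass with them (limma adjusted p = 0.0775). The haemoglobin genes Hbb-bs and Hba-a2 had 27.5 ± 9.53 and 21.3 ± 10.6 FPKM in wild type against 9.38 ± 5.81 and 7.84 ± 3.69 FPKM, and did not pass. Markers of multiciliated epithelium, another cell that builds central pairs and spokes, overlapped too, at 27.2 to 34.6 and 31.5 to 40.9 FPKM over 8 of 10 genes. The part of these cells in the results below was not tested. In such bulk samples fewer cells of a type and less RNA per cell cannot be told apart, and without matched mRNA levels a lower footprint density is not by itself lower translation.

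As a group these genes lay lower in SKO relative to other rows, by a modest amount and with a few members far below the rest. The list was made with the lower values of Cabcoco1 and Efcab5 already known, so it is not an independent sample of such genes. With the deposited values the median log2 fold change over all tested rows was 0.13, so changes are also given relative to it. On that scale the members' median was -0.41, and 28 of 33 lay below 0, as did 50% of all rows and 50.6% of protein-coding rows. Of the members 0 passed the test (limma, Benjamini-Hochberg over all tested rows, threshold 0.05). Of all rows 0.128% did, 0.0193% lower and 0.109% higher. At an unadjusted p under 0.05, 3 members were lower, against 2.83% of rows, and 0 were higher, against 8.15%. The genotypes did not overlap for 5 members that were lower (Cabcoco1, Efcab5, Spef2, Cfap54 and Cfap74), against 4.78% of rows, and for 0 that were higher, against 10.9%. More than 1 log2 unit below the all-row median lay 3 members, against 4.52% of rows, or 4.41% under the scaling described next. The members without Cabcoco1, Efcab5 and Spef2, a split made after the values were seen, had a median of -0.33, with 25 of 30 below the all-row median. A list of 16 further central pair and spoke genes, described below, had a median of 0.03, with 8 below.

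The libraries differed in a way that touched nearly every member. Wild-type replicate 1 was the lowest wild-type library in 30 of 33 members and wild-type replicate 3 the highest in 31, while SKO replicate 1 was the lowest SKO library in 27 and SKO replicate 2 the highest in 28. This order was not particular to the members. Medians over all tested rows followed it, at 3.11, 3.42 and 3.94 FPKM in wild type and 3.36, 4.47 and 3.87 FPKM in SKO. The share of all rows in that order was not computed. The geometric mean over the members was 30.6, 44.3 and 58.1 FPKM in wild type and 26.1, 46.0 and 35.2 FPKM in SKO, so the groups overlapped. A TMM-type scaling, which divides each library by a trimmed mean of its log ratios to a reference library, brought these to 37.7, 47.8 and 52.2 against 30.8, 35.2 and 32.7. After it all 3 wild-type libraries lay above all 3 SKO libraries. Wild-type replicate 1 was then lowest of its group in 28 members and wild-type replicate 3 highest in 23. SKO replicate 1 was lowest of its group in 20 and SKO replicate 2 highest in 16. Under this scaling the members' median was -0.44 relative to all rows, and 29 of 33 were below the all-row median, against 51.1% of protein-coding rows. The test was passed by 3 members, Cabcoco1, Efcab5 and Spef2, all lower. Of all rows 1.02% passed, 0.257% lower and 0.764% higher. At an unadjusted p under 0.05, 10 members were lower, against 6.71% of rows, and 1 was higher, against 8.90%. Groups did not overlap in the lower direction for 12 of 33 members, against 9.85% of rows, and in the higher direction for 1, against 11.6%.

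**Figure D1:**
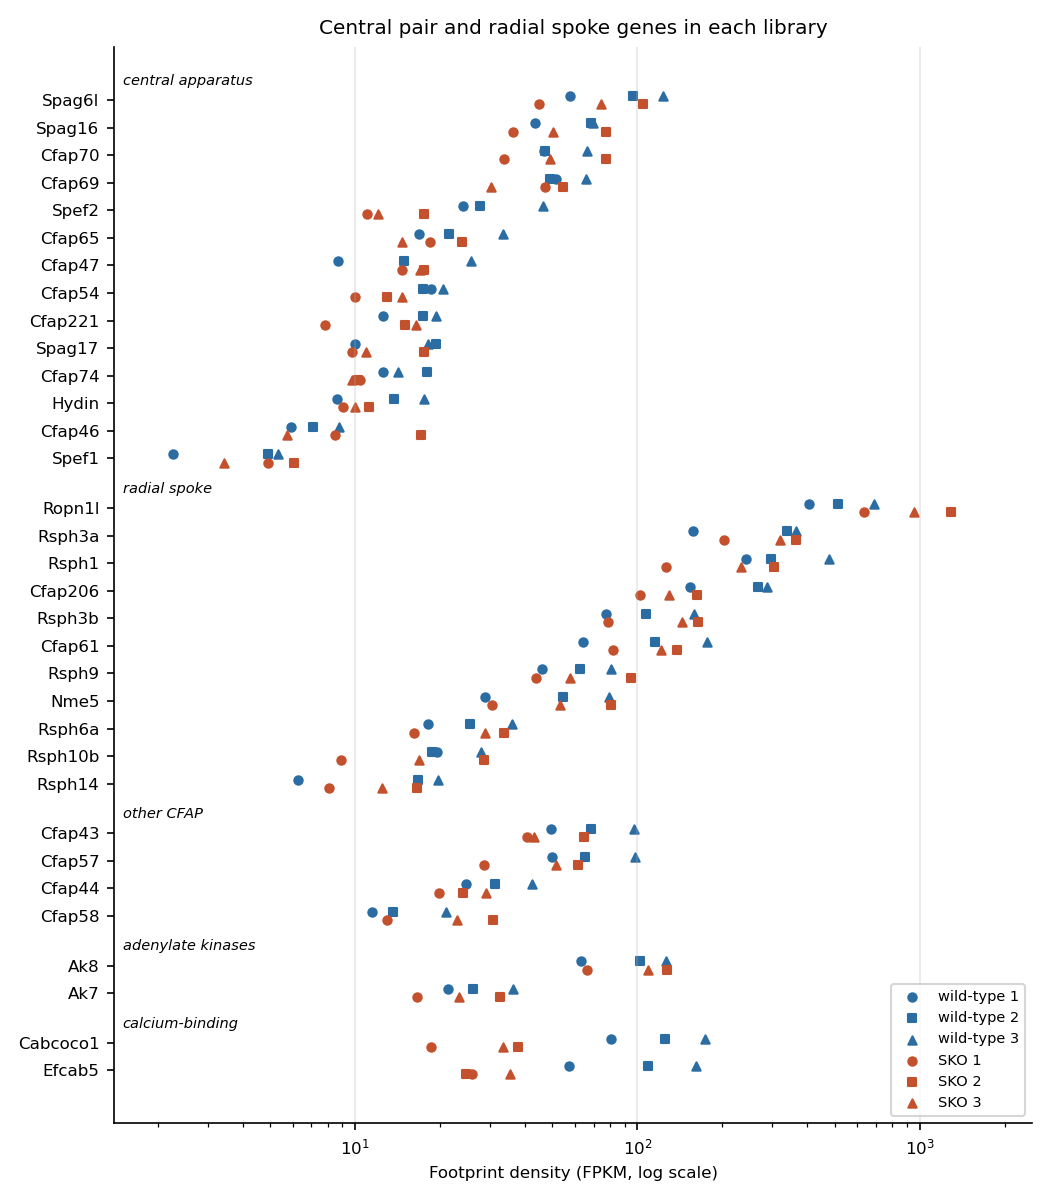
Footprint density of the 33 members in each library (x axis, FPKM, log scale), by role and by mean level; blue marks are wild-type libraries, orange marks SKO libraries, and the shape gives the replicate number. Ropn1l is the densest member, at 405 to 1292 FPKM, Spef1 the least dense, at 2.27 to 6.08 FPKM, and Cabcoco1, Efcab5, Spef2, Cfap54 and Cfap74 show no overlap between the genotypes.

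The largest decreases were on 2 genes for calcium-binding proteins, whose lower values were already known when the members were listed. Cabcoco1 (identifier 73287, GRCm38 chromosome 10, 68430956 to 68541921) encodes a ciliary calcium-binding coiled-coil protein. Wild-type replicates 1 to 3 had 80.4, 125 and 173 FPKM, and SKO replicates 1 to 3 had 18.5, 37.7 and 33.4 FPKM. Every SKO library lay below every wild-type library, and the means, 126 ± 46.1 and 29.9 ± 10.1 FPKM (SD, n = 3), differed 4.22-fold. On the log2 scale the deposited values differed by -2.03 (SE 0.45, limma adjusted p = 0.161), which did not pass, and the change was -2.20 under TMM-type scaling (SE 0.25, 95% interval -2.78 to -1.62, limma adjusted p = 0.0186). Efcab5 (identifier 319634, chromosome 11, 77089904 to 77216227) encodes a protein with an EF-hand, a calcium-binding fold. It had 57.3, 109 and 161 FPKM in wild type and 26, 24.8 and 35.5 FPKM in SKO. Again no SKO library reached the lowest wild-type library, and the means, 109 ± 51.9 and 28.8 ± 5.88 FPKM, differed 3.80-fold. The scaled log2 fold change was -1.95 (SE 0.33, limma adjusted p = 0.0473, against 0.206 with the deposited values). The span of Efcab5 overlaps that of Ssh2, a phosphatase gene, which had 19.5 and 22.7 FPKM (scaled change relative to all rows 0.04). That of Cabcoco1 overlaps a long noncoding RNA, Gm32872, at 61.2 and 35.9 FPKM (scaled limma adjusted p = 0.483). Whether counting used the strand is not stated.

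Spef2 was the third member that fell under TMM-type scaling. It encodes a protein of a central pair projection (identifier 320277, chromosome 15, 9578193 to 9748868) that sperm tail assembly is known to need. It had 24.1, 27.7 and 46.2 FPKM in wild type and 11, 17.6 and 12 FPKM in SKO. The groups did not overlap, and the means, 32.7 ± 11.9 and 13.5 ± 3.56 FPKM, differed 2.42-fold. The scaled log2 fold change was -1.35 (SE 0.22, limma adjusted p = 0.0468, against 0.320 with the deposited values). The calls rested on all 6 libraries: under TMM-type scaling Efcab5 and Spef2 did not pass when any library was left out (adjusted p from 0.0769 to 0.189 and from 0.0929 to 0.172, limma). Cabcoco1 passed only without wild-type replicate 1 (adjusted p from 0.0343 to 0.104). The direction held in each of these fits, with Cabcoco1 between -2.39 and -2.04 relative to all rows, Efcab5 between -2.25 and -1.74, and Spef2 between -1.44 and -1.2.

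**Figure D2:**
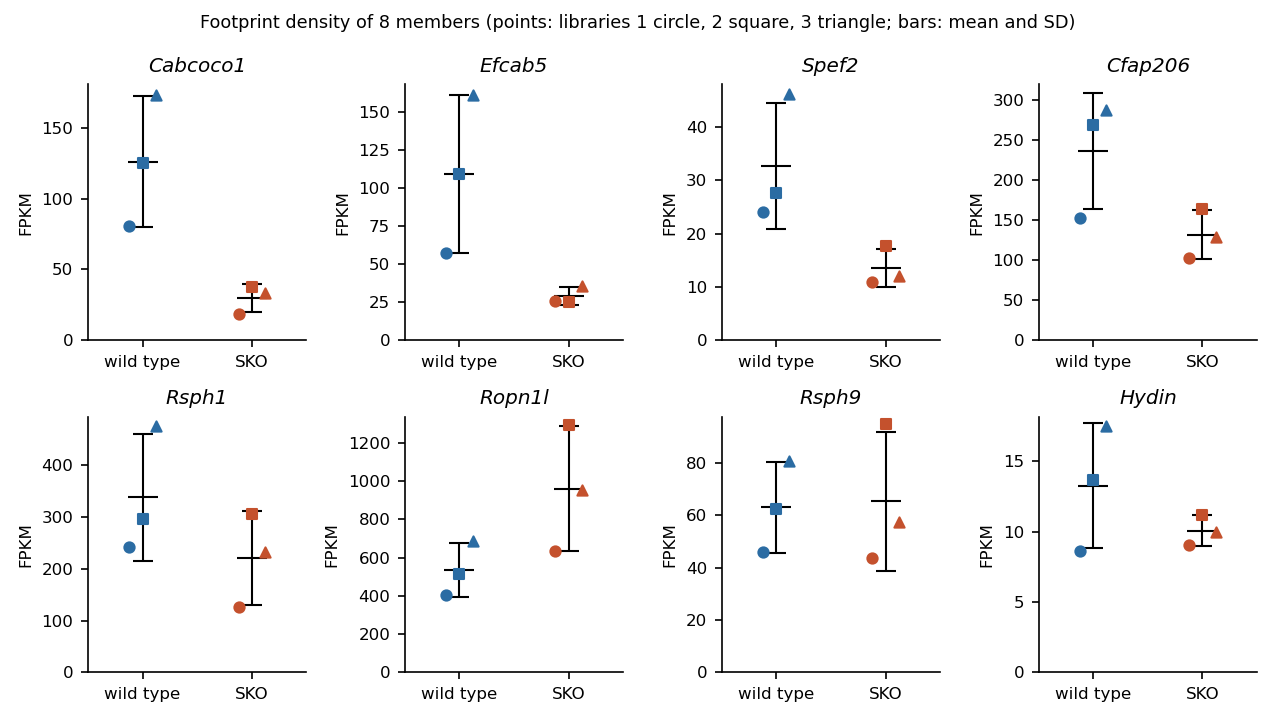
Footprint density (y axis, FPKM, starting at 0) of 8 members in the wild-type and SKO libraries; marks are libraries and bars the mean and SD of 3. Cabcoco1, Efcab5 and Spef2 separate fully, Cfap206 and Rsph1 lie lower on average, Ropn1l lies higher on average, and Rsph9 and Hydin overlap.

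Promoters were examined because RFX factors are known to drive many cilia and flagella genes through the X-box, whose arm reads GTTGCC. Of the members, 28 have a promoter in the RefSeq table of GRCm38.p6, with 250 bases before and 50 after the start of its transcript. On either strand GTTGCC occurs in 11 of these 28 genes, or 39.3%, against 17.0% of 9041 tested protein-coding genes and 14.1% of 27025 genes in that table. The cyclic AMP response element TGACGTCA, bound by CREM in spermatids, occurs in 1 of 28 (Spag6l), against 3.73% of the tested genes, and the shorter TGACG, which it contains, in 4 of 28, or 14.3%, against 34.6%. Short motifs also match by base composition, and a match is no site. GTTGCC lies within 20 bases of the start in Spef2 and Cabcoco1, which fell under TMM-type scaling. It does so too in Ropn1l, Hydin, Cfap46, Cfap44, Cfap74 and Rsph3b, which did not pass under that scaling. Whether its position bears on the changes was not tested. Spef2, Cabcoco1 and Ropn1l are shown because the results name them most. The motif is in capitals in these windows of 30 bases, read 5′ to 3′ on the gene's strand (chr10:68541852-68541881, chr15:9748843-9748872 and chr15:31453692-31453721, all on the minus strand):
Cabcoco1: cctcccaccacgGTTGCCttggcgatgaag
Spef2: ccttagcaactgGTTGCCctgggcgacggg
Ropn1l: tgcgcagctcggGTTGCCtggagaccgcac

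The 250 bases before the start of Cabcoco1 (chr10:68541876-68542125, minus strand) and Spef2 (chr15:9748869-9749118, minus strand) are shown because both fell. They end where the listed transcript starts, and GTTGCC begins at its base 7 and base 9. The gene span of Cabcoco1 runs to 68541921, so part of that gene's window lies inside the span. The motif position given for Cabcoco1 holds for the listed transcript only. The Efcab5 window in the table lies well inside the gene's span and is not shown.
Cabcoco1 upstream: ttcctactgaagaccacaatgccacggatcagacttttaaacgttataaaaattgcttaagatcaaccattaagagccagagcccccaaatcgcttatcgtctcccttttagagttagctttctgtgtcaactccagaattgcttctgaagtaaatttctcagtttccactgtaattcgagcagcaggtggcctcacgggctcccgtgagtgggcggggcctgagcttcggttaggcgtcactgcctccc
Spef2 upstream: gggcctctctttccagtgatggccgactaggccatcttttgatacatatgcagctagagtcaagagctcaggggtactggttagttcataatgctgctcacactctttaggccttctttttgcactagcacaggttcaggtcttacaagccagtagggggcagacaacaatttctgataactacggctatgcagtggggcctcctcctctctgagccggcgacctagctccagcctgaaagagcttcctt

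The 14 central apparatus genes, Spef2 included, lay mostly below other rows, and Spef2 alone of them passed. They had a median of -0.47 relative to all rows under TMM-type scaling, with 12 of 14 below the all-row median and 13 that did not pass. With the deposited values the median was -0.43 and 0 of 14 passed. Cfap54, Cfap221, Cfap46 and Cfap74 encode partners in one projection of the central pair. Cfap54 had 18.6, 17.4 and 20.5 FPKM in wild type and 10, 13 and 14.6 FPKM in SKO, without overlap (scaled log2 fold change -0.72, SE 0.22, limma adjusted p = 0.175). Cfap74 had 12.6, 18 and 14.2 FPKM in wild type and 10.4, 10.2 and 9.74 FPKM in SKO, also without overlap (scaled log2 fold change -0.66, limma adjusted p = 0.287). Cfap221, at 16.4 ± 3.59 and 13.1 ± 4.62 FPKM, overlapped before TMM-type scaling and narrowly did not after it. Their partner Cfap46 went the other way on average, at 7.28 ± 1.44 against 10.4 ± 5.91 FPKM, a difference carried by SKO replicate 2 at 17.1 FPKM. Without that library Cfap46 lay 0.07 below all rows (-0.07).

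Spag6l, Spag16 and Spag17 are the mouse homologues of algal genes whose loss paralyses the flagellum. Spag6l had 57.6, 96.5 and 123 FPKM in wild type and 44.8, 105 and 74 FPKM in SKO, Spag16 had 60.6 ± 15 and 54.6 ± 21.2 FPKM, and Spag17 had 15.8 ± 5.1 and 12.7 ± 4.26 FPKM. All 3 overlapped between the genotypes, and none passed (scaled limma adjusted p of 0.423, 0.516 and 0.470). Hydin, a very large protein of another central pair projection whose loss stiffens cilia, had 8.65, 13.7 and 17.5 FPKM in wild type and 9.05, 11.2 and 10 FPKM in SKO. The SKO values lay inside the wild-type range. Cfap69, Cfap70 and Cfap65 had 55.4 ± 9.07 against 43.8 ± 12.4, 53.3 ± 11.4 against 53.3 ± 22.1, and 23.9 ± 8.57 against 19 ± 4.71 FPKM. Cfap47, the X-linked member, had 16.4 ± 8.66 and 16.4 ± 1.56 FPKM and a scaled change of -0.05 relative to all rows. The 364 tested protein-coding rows of the X had a median of 0.65 on that scale. Spef1, a microtubule-bundling protein, was the least dense member, at 4.17 ± 1.66 and 4.8 ± 1.34 FPKM.

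The radial spoke genes stayed closer to other rows than the central apparatus genes did in median, a difference that was not tested. Their 11 tested genes had a median of -0.16 under TMM-type scaling, with 10 of 11 below the all-row median and 0 past the test. At an unadjusted p under 0.05, 2 were lower, against 6.71% of all rows, and 1 higher, against 8.90%. With the deposited values the median was -0.11. For spoke head genes Rsph9 and Rsph6a the groups overlapped, at 63.0 ± 17.3 against 65.4 ± 26.5 FPKM and 26.6 ± 9 against 26.2 ± 9.05 FPKM. The 95% interval of the scaled log2 fold change ran from -0.67 to 0.36 for Rsph9, so a change of either sign within it is not excluded. Rsph1, a further head gene, had 242, 297 and 476 FPKM in wild type and 126, 305 and 232 FPKM in SKO. SKO replicate 2 lay inside the wild-type range before scaling, and every SKO library lay below every wild-type library after it. The scaled log2 fold change was -0.82 (SE 0.27, 95% interval -1.43 to -0.20, limma adjusted p = 0.195). The ratio of Rsph1 to Rsph9, which no library scaling can move, took wild-type values of 5.27, 4.77 and 5.90 and SKO values of 2.87, 3.21 and 4.03, without overlap. This pair was among several picked by hand, of which some, such as Rsph3b to Rsph3a, overlapped and others did not. The share of other gene pairs without overlap was not computed.

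The stalk genes Rsph3a and Rsph3b are paralogues whose reads may be shared, so they are given together. Rsph3a had 286 ± 113 and 295 ± 83.2 FPKM and Rsph3b 115 ± 41.5 and 129 ± 44.8 FPKM. Nme5, a spoke protein of the nucleoside kinase family, had 54.3 ± 25.3 and 54.7 ± 24.9 FPKM. Rsph14 and Rsph10b had 14.2 ± 7.04 against 12.3 ± 4.2 and 22.0 ± 5.11 against 18.2 ± 9.95 FPKM. In each of these the genotypes overlapped. At the base of the spokes, Cfap61 of the calmodulin- and spoke-associated complex overlapped fully, at 119 ± 56.6 and 113 ± 28.7 FPKM. Cfap206, which docks a spoke and a dynein, had 153, 268 and 287 FPKM in wild type and 102, 163 and 129 FPKM in SKO. SKO replicate 2 lay above wild-type replicate 1 before scaling, and no SKO library did so after it. The scaled log2 fold change was -0.99 (SE 0.23, limma adjusted p = 0.0953, against 0.531 with the deposited values), the next lowest change after Spef2 among the members, and it did not pass.

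Ropn1l was the densest member and lay furthest in the other direction. It encodes a spoke protein with a docking domain like that of the regulatory subunit of protein kinase A. It had 405, 513 and 687 FPKM in wild type and 637, 1292 and 955 FPKM in SKO. SKO replicate 1 lay below wild-type replicate 3 with the deposited values, and the means differed 1.8-fold. After TMM-type scaling every SKO library lay above every wild-type library. The scaled log2 fold change was 0.65 (SE 0.24, 95% interval 0.09 to 1.21, limma adjusted p = 0.252), so it did not pass. Its ratio to the stalk gene Rsph3a took wild-type values of 2.59, 1.52 and 1.88 and SKO values of 3.15, 3.55 and 2.99, without overlap. That pair too was picked by hand, with no share over other pairs computed. The span of Ropn1l overlaps a pseudogene, Gm6361, at 26.8 and 60.1 FPKM.

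**Figure D3:**
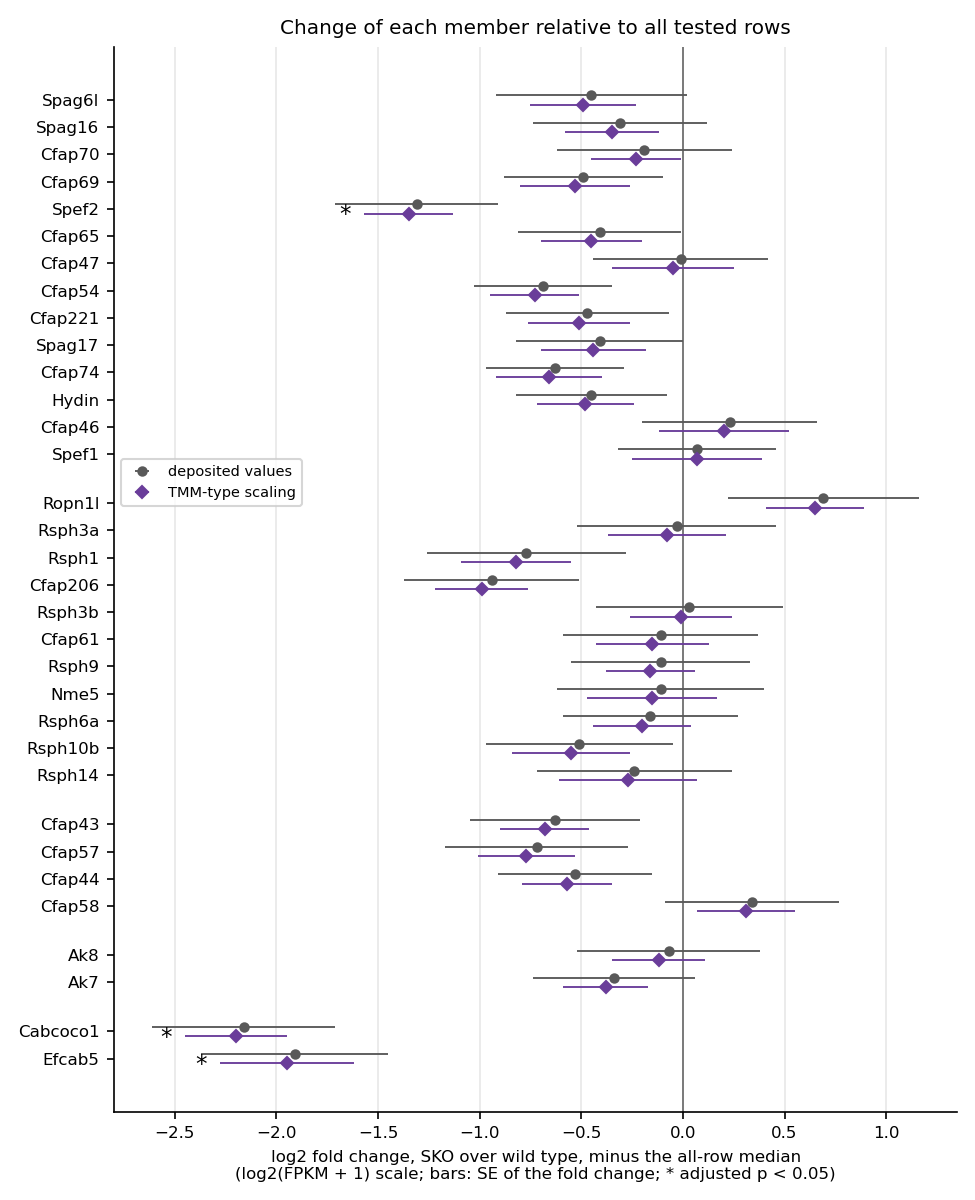
Change of each member, as log2 fold change of SKO over wild type on the log2(FPKM + 1) scale minus the median over all tested rows (x axis), with the deposited values (grey) and under TMM-type scaling (purple); bars are the SE of the fold change and stars mark an adjusted p under 0.05. Most members lie below 0, Cabcoco1, Efcab5 and Spef2 lie at -2.20, -1.95 and -1.35 under TMM-type scaling, and Ropn1l lies at 0.65.

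Of the remaining cilia and flagella genes, Cfap43 and Cfap44 encode a tether of the inner dynein arms. They had 71.7 ± 24 against 49.5 ± 13.5 FPKM and 32.8 ± 8.89 against 24.3 ± 4.6 FPKM, with scaled log2 fold changes of -0.67 and -0.56. Cfap57, also tied to inner dynein arms, had 71.2 ± 24.8 and 47.2 ± 16.8 FPKM and a scaled log2 fold change of -0.77. These 3 genes overlapped before scaling, did not overlap after it, and did not pass (limma adjusted p from 0.178 to 0.280). Cfap58, a coiled-coil protein of the tail, differed in direction at 15.3 ± 4.94 and 22.3 ± 8.96 FPKM, with overlap. Of the adenylate kinases, enzymes that balance ATP and ADP, Ak8 had 97.2 ± 32 and 101 ± 31.1 FPKM and Ak7 had 27.9 ± 7.66 and 24.2 ± 7.99 FPKM. Neither passed, and Ak7 overlapped before TMM-type scaling and not after it.

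**Figure D4:**
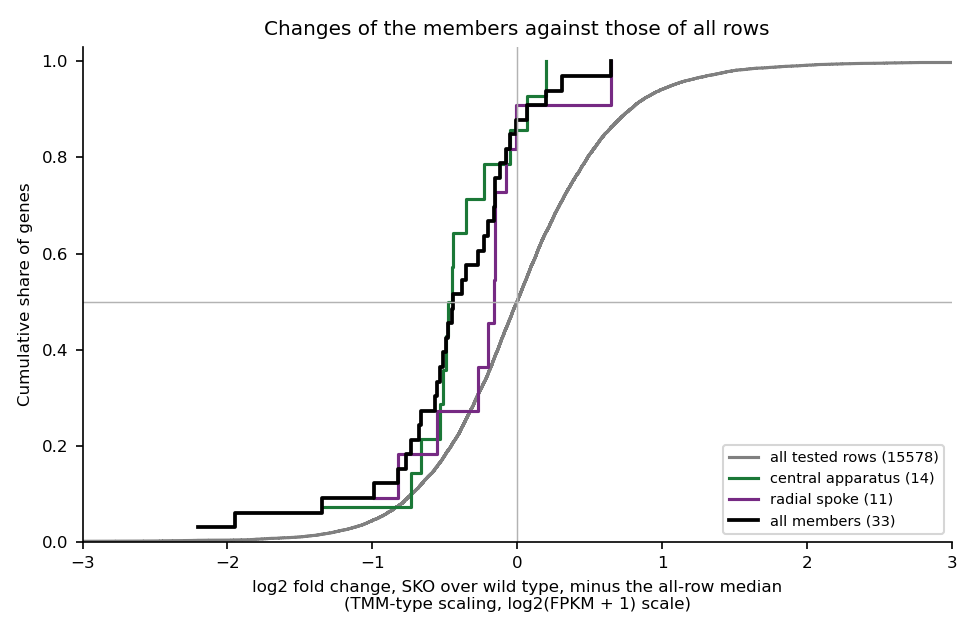
Cumulative share of genes (y axis) by scaled log2 fold change of SKO over wild type minus the all-row median (x axis), for all 15578 tested rows (grey), the 33 members (black), the 14 central apparatus genes (green) and the 11 radial spoke genes (purple). The member curves lie to the left of the grey curve over most of the range, with medians of -0.44, -0.47 and -0.16 for the members, the central apparatus and the radial spokes.

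How the members stood to each other was read from the ratio of each gene to the geometric mean of all 33 in the same library, a quantity that library scaling cannot move but that depends on the other members. By it Cabcoco1 went from 2.63, 2.82 and 2.97 in wild type to 0.709, 0.818 and 0.951 in SKO, and Efcab5 from 1.87, 2.47 and 2.77 to 0.994, 0.539 and 1.01. Spef2 went from 0.789, 0.625 and 0.795 to 0.421, 0.382 and 0.340. Ropn1l went from 13.2, 11.6 and 11.8 to 24.4, 28.1 and 27.1. In all 4 genes the genotypes did not overlap by this ratio. Of the 33 members, 6 were lower without overlap (these 3, Cfap57, Cfap206 and Rsph1), against 3.13% of all tested rows set over the same mean. In the other direction 6 were higher (Ropn1l, Cfap58, Rsph3a, Rsph3b, Rsph9 and Ak8), against 26.7% of rows. When all rows were scaled by that mean, an alternative chosen after seeing the data, Cabcoco1, Efcab5 and Spef2 passed as lower, as did 0.399% of 15797 rows tested there. Ropn1l passed as higher (log2 fold change 1.12, or 0.78 relative to all rows, limma adjusted p = 0.00866), as did 8.74% of rows. That scaling centres the members, and the median of all rows was then 0.34.

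**Figure D5:**
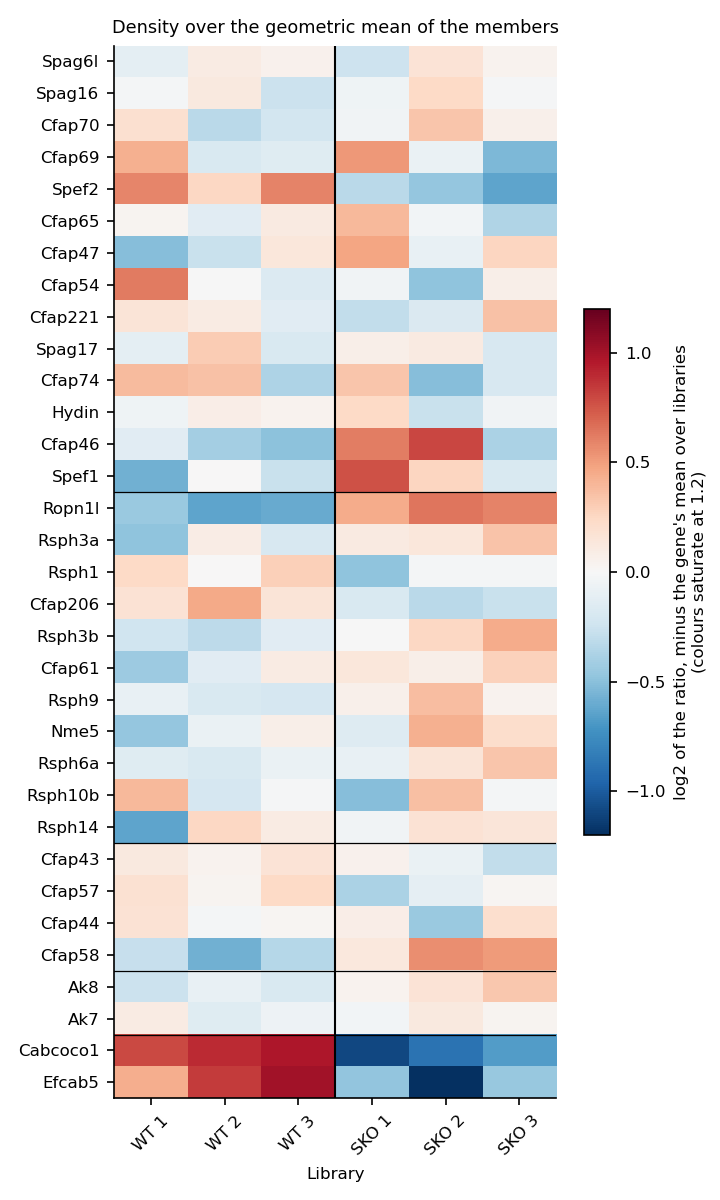
Ratio of each member to the geometric mean of the 33 members in the same library, as log2 minus the gene's mean over the 6 libraries (colour, saturating at 1.2), by library (x axis; WT is wild type) and role (blocks of genes). Cabcoco1, Efcab5 and Spef2 are high in wild type and low in SKO, and Ropn1l and Cfap58 show the reverse.

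Other axonemal genes were taken in 6 lists. Of 126 tested genes that are not members, 0 passed with the deposited values (limma), with 7 lower and 9 higher at an unadjusted p under 0.05 (2.83% and 8.15% over all rows). Under TMM-type scaling 3 fell and 1 rose, and 29 were lower and 14 higher at an unadjusted p under 0.05 (6.71% and 8.90% over all rows). The median relative to all rows was then -0.12. The 25 axonemal dynein and docking genes had a median of -0.47. Of these Armc4, a docking factor of the outer dynein arm, fell under that scaling, from 108, 160.5 and 181 FPKM in wild type to 44.1, 85.8 and 77.6 FPKM in SKO (limma adjusted p = 0.0473). Dnah8, the sperm outer arm heavy chain, had 154 ± 39.6 and 192 ± 62.8 FPKM. The 28 microtubule inner proteins, tektins and tubulins had a median of -0.08. The alpha-tubulin copies Tuba3a and Tuba3b, which can share reads, fell under TMM-type scaling, Tuba3a from 1777 ± 659 to 511 ± 183 FPKM and Tuba3b from 1422 ± 539 to 414 ± 155 FPKM. Spaca9, a protein inside the doublets, rose under it from 16.2 ± 3.1 to 53 ± 10.9 FPKM, and its span overlaps that of the member Ak8.

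In the other 4 lists 0 genes passed under either treatment (limma), and the genes with the highest means are named in 3 of them. Under TMM-type scaling, 16 further central pair and spoke genes had a median of 0.00, with 5 lower and 3 higher at an unadjusted p under 0.05. Over all rows 6.71% were lower and 8.90% higher at that p, a share to set beside each count here. The 14 genes of the nexin-dynein regulatory complex and its ruler, which link and space the doublets, had a median of -0.05, with 3 lower and 0 higher at that p. Ccdc113 and Drc1 led them, at 206 ± 57.1 and 114 ± 49.8 FPKM in wild type and 139 ± 55.6 and 142 ± 31.8 FPKM in SKO. The 26 intraflagellar transport and ciliogenesis genes had a median of -0.13, with 6 lower and 1 higher, led by Ift43 (204 ± 81.4 and 204 ± 87.3 FPKM) and Ift81 (112 ± 19.1 and 86.9 ± 30.9 FPKM). The 18 outer dense fibre and fibrous sheath genes had a median of 0.09, with 1 lower and 4 higher. The sperm lactate dehydrogenase gene Ldhc led them at 3846 ± 1268 and 3711 ± 1355 FPKM. It was followed by Spa17, whose product has a docking domain like that of Ropn1l, at 292 ± 94.7 and 514 ± 203 FPKM.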

How the data were processed

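Footprints of round spermatids were measured in 6 libraries. The values are FPKM made by the authors and deposited as 1 value per gene symbol and library. Per the submitters' processing notes, cutadapt, Bowtie2, STAR, Cufflinks and mm10 were used, with no order given. Neither the annotation nor the handling of multiply mapped reads is stated there. Absolute depth is unknown. Steps between the low values of 1800 genes gave relative depths from 0.503 (SKO replicate 2) to 1 (SKO replicate 1), with 13.1% of genes in whole steps (within 2%), too few to recover reads.

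Rows averaging 1 FPKM or more were tested on log2(FPKM + 1) with limma 3.58.1 in R 4.3.3 (eBayes, trended prior). Tests were two-sided, and p-values were adjusted by Benjamini-Hochberg over 15578 rows, with a threshold of 0.05. This scale understates the change of low genes. TMM-type factors ran from 0.812 to 1.31 (trims of 0.3 for ratios and 0.05 for levels). The fit was tested on simulated data. The members and lists were chosen with earlier results of these data known. Named genes are all members, Eif5a and, in each axonemal list, the 2 genes with the smallest p past the threshold or else the 2 densest, with the 2 densest markers of each cell type. The last are printed for 4 cell types and other markers as sums. The densest genes of 1 axonemal list are not reported here. Listed genes past the threshold under TMM-type scaling were added after their values were seen, as were the members singled out. In the axonemal lists 18 symbols were updated by hand. Coordinates and promoters come from RefSeq tables of GRCm38, where 32 members matched. Proline runs in member proteins were not analysed here. Alternatives covered the pseudocount, filter, scaling, prior, replicate block and left-out libraries.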

Additional observations from a re-analysis of the deposited data

How the results depend on the processing

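The direction of Cabcoco1, Efcab5, Spef2, Cfap206, Rsph1 and Ropn1l held under all 26 alternatives, and that of Eif5a, which passed in each, ran from -4.35 to -2.85. The median of the members minus that of all rows ran from -0.53 to -0.21, and 23 to 30 of 33 members lay below the all-row median. Calls depended on the scaling. Members past the threshold numbered 0 with the deposited values, 3 under TMM-type scaling, 6 under quantile normalization, 1 under scaling by the median of protein-coding rows and 4 under scaling by the geometric mean of the members, which was chosen after seeing the data. With a library left out of the TMM-type fit they numbered 0 to 1 (Cabcoco1, without wild-type replicate 1), and 0 in every other alternative run. The cause was not tested. Other axonemal genes past the threshold numbered 4, 17 and 19 under TMM-type, quantile and member scaling, and 0 otherwise.

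Rows past the threshold, 20 with the deposited values, numbered 4 with a pseudocount of 5, 5 with no filter, 86 with a mean of at least 5 FPKM, 159 under TMM-type scaling, 449 under quantile normalization, 56 under scaling by the median of protein-coding rows, 63 with a robust prior, 9 with identical rows kept once and 1444 (of 15797) under member scaling. Leaving out a library gave 4 to 31, and 4 to 28 under TMM-type scaling. Without wild-type replicate 1, 2 or 3 in turn there were 6, 10 and 4, or 28, 8 and 4 under TMM-type scaling, and without SKO replicate 1, 2 or 3, 17, 31 and 13, or 10, 23 and 13. Same-numbered libraries hardly deviated together (correlations over rows of 0.09, 0.00 and 0.02). The labels state no pairing, and with 3 libraries a group such correlations cannot exclude one. With the replicate block 5 rows passed, 4 with TMM-type scaling and the block, and 0 members in either.

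Members with small changes crossed the all-row median, none past the threshold. Rsph3b, at 0.03, had -0.01 with a pseudocount of 0.1, TMM-type scaling with and without the block, TPM and the coding median, -0.05 with a mean of at least 5 FPKM and -0.15 under quantile normalization. Under TMM-type scaling it had -0.16 and -0.03 without wild-type replicate 1 or 2, and -0.09 and -0.12 without SKO replicate 2 or 3. With a pseudocount of 5, no filter and member scaling, Cfap47 had 0.01, 0.04 and 0.06 and Rsph3a 0.03, 0.02 and 0.05. Under member scaling Ak8 had 0.01. With a library left out, the changes under deposited values and TMM-type scaling ran from -0.28 to 0.10 and -0.30 to 0.01 for Ak8, -0.07 to 0.55 and -0.07 to 0.52 for Cfap46, -0.31 to 0.27 and -0.32 to 0.21 for Cfap47, -0.42 to 0.15 and -0.43 to 0.07 for Cfap61, -0.42 to 0.15 and -0.44 to 0.07 for Nme5, -0.35 to 0.13 and -0.36 to 0.09 for Rsph3a, -0.14 to 0.25 and -0.16 to 0.17 for Rsph3b, and -0.16 to 0.26 and -0.16 to 0.25 for Spef1. With the deposited values they ran from -0.32 to 0.04 for Rsph6a and -0.32 to 0.03 for Rsph9.

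Depth is unknown, so the precision of low members such as Spef1 cannot be given from counts. With 3 samples a group, an exact permutation test of 1 gene cannot go below p = 0.1.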
